A study of Mus musculus with 2 samples.

Results

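Lipocalins are small secreted carrier proteins that fold into a barrel and hold a small fat-soluble or iron-binding ligand inside it. The liver makes several of them for the blood. Lcn2 encodes lipocalin 2, which binds bacterial siderophores and keeps iron from microbes, and is used as a marker of kidney injury in urine and plasma. Orm1, Orm2 and Orm3 encode orosomucoids (alpha-1-acid glycoproteins), plasma proteins of the acute phase response that bind drugs and lipids. Rbp4 carries retinol from the liver to other tissues, Apom carries sphingosine-1-phosphate on lipoproteins, Apod binds arachidonic acid and other lipids, and Ptgds is both a lipocalin and an enzyme that makes prostaglandin D2. Genes were taken as members by name: every probe set whose platform annotation gave 1 of these 8 gene symbols was used. All 8 genes were on the array, with 11 of its 45037 probe sets other than array controls, and all 8 were among the 13128 of 18193 named genes that passed a level filter, described below.

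The question was which liver genes differ in expression once the kidneys have been injured. In the AKI group (acute kidney injury), female wild-type C57BL/6 mice aged 8 weeks had both kidneys made ischemic for 30 min at body warmth and then reperfused. The sham group held mice of the same sex, strain, genotype and age after a sham operation, and all livers were taken 24 h after surgery. Liver of 3 mice of a group was pooled (100 mg of frozen tissue), and each pool was hybridised to 1 Affymetrix mouse array, so there was 1 array per group and no replicate. No test between groups is possible, the spread between mice cannot be estimated, and "higher" and "lower" describe these 2 pools.

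Signals are the authors' probe-set intensities on a linear scale. Each difference subtracts the sham value from the AKI value after log2(signal + 71.8), so that it understates the change of weak probe sets, and a difference of 1 is called 2-fold. Each gene is represented by its probe set with the highest mean level, which had to reach the median of all probe sets on at least 1 array (231.8 AKI, 225.7 sham). A signal cannot be set against that of another gene's probe set, so levels are compared within a probe set. The repeat measurement at hand is a further probe set of the same gene: over 5149 genes with several, their differences had an SD of 0.70, from 0.66 for the most strongly expressed of 4 level classes to 0.90 for the weakest. This SD leaves out the mice. The median difference over all genes was -0.02, with 10.4% of the genes higher by 2-fold or more and 12.4% lower by as much. Of 13 named hepatocyte markers, 12 were above the level filter in the AKI pool and all 13 in the sham pool. The ratio of 3′ to 5′ control probe sets, which grows with RNA breakdown, was 2.24 in the AKI pool and 1.61 in the sham pool for Actb and 1.05 and 0.86 in the same pools for Gapdh. Its part in the differences was not tested.

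The lipocalins divided by gene. Lcn2 stood far above all other members, the 3 orosomucoid genes were moderately higher in the AKI pool, and the carriers Rbp4 and Apom were slightly lower. Apod and Ptgds each had probe sets in both directions. Of the 8 genes, 5 (62.5%) were at least 2-fold higher, where 10.4% of all genes were. These were Lcn2, Orm1, Orm2, Orm3 and, on 1 of its 2 probe sets, Apod. None (0 of 8) was at least 2-fold lower, where 12.4% of all genes were, and the median difference of the 8 was 1.08, against -0.02 over all genes. This median falls between Orm3 (1.11) and the main probe set of Apod (1.05). Over the alternative settings it ranged from 0.68 (mean of all probe sets) to 1.38 (centring on hybridization controls). With centring on reference genes, 3 of the 8 genes were at least 2-fold higher and 1 lower, and with a pseudocount of 228.7, 3 were higher and 0 lower. Lcn2, Orm1 and Orm2 were the 3 in both settings.

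**Figure D1:**
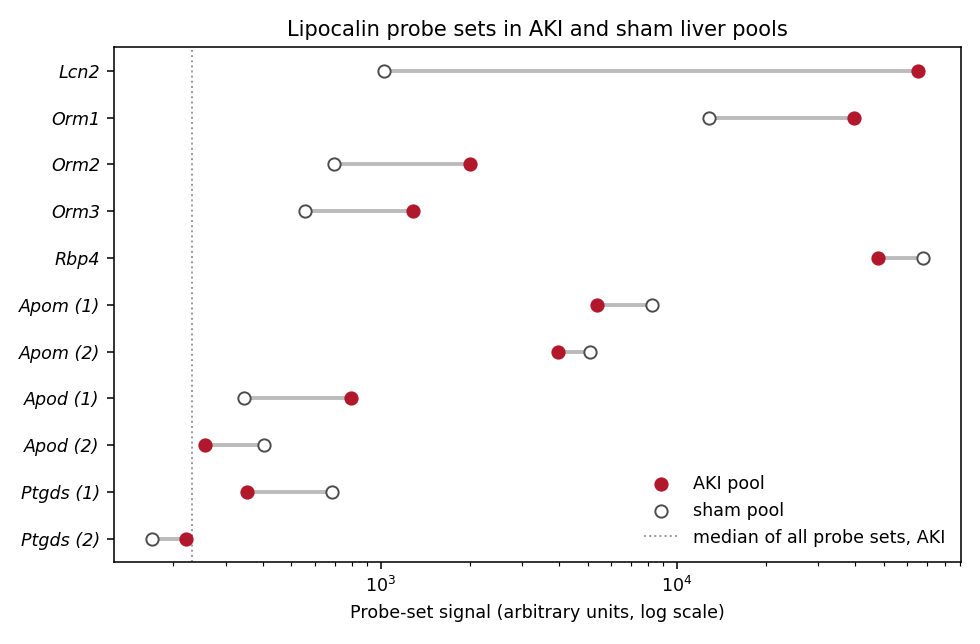
Signal of each of the 11 lipocalin probe sets (horizontal log axis, arbitrary units) in the AKI pool (filled) and the sham pool (open), with numbers in brackets for genes with 2 probe sets. The dotted line marks 231.8, the median of all probe sets on the AKI array. Lcn2 has by far the widest gap, and the probe sets of Apod and of Ptgds point in opposite directions.

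Lcn2 had a signal of 65012.4 in the AKI pool and 1024.3 in the sham pool, a ratio of 63.5 and a log2 difference of 5.89. It ranked 3 from the top of the 13128 genes. For scale, 0.548% of the genes were at least 8-fold higher. The 2 genes ranked just above Lcn2 were Pdk4 (7.13), a kinase that shuts off pyruvate dehydrogenase, and the acute phase gene Saa2 (6.24). The 2 just below it were the neutrophil-attracting chemokine gene Cxcl2 (5.57) and Cd14 (5.54), which encodes a co-receptor for lipopolysaccharide. This ranking rests on 1 difference per gene. Lcn2 was measured by 1 probe set, whose suffix marks probes shared by several transcripts of a gene, so its difference could not be checked by a further probe set.

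Orm1 had a signal of 39642.4 in the AKI pool and 12868.3 in the sham pool, a ratio of 3.08 and a log2 difference of 1.62. For Orm2 the signals were 2000.1 in the AKI pool and 694.1 in the sham pool (ratio 2.88, log2 difference 1.44). Orm3 followed with 1286.1 in the AKI pool and 557.8 in the sham pool (ratio 2.31, log2 difference 1.11). The 3 genes thus differed in the same direction and by similar amounts. The gap between the log2 differences of Orm1 and Orm3 was 0.51. The spread between probe sets of the same gene gives such a gap an SD of 0.95, so the order of Orm1 and Orm3 is not distinguishable. The gap between Lcn2 and Orm1 was 4.27, against an SD of 0.93.

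The orosomucoid genes are close copies of each other, each was measured by 1 probe set, and how far these probe sets also bind transcripts of the other copies was not tested. Orm1, Orm2 and Orm3 ranked 513, 697 and 1156 from the top. By difference, the genes ranked next to Orm1 were Mrps18b (1.62) and Foxn4 (1.62) above it and Acer3 (1.62) and Ly6g6d (1.62) below it. Next to Orm2 stood 4930483J18Rik (1.44), Oga (1.44), Ube2j1 (1.44) and Rem2 (1.44), and next to Orm3 were 1700128F08Rik (1.11), Timp3 (1.11), 6820431F20Rik (1.11) and Pnn (1.11). At these ranks many genes share nearly the same difference.

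**Figure D2:**
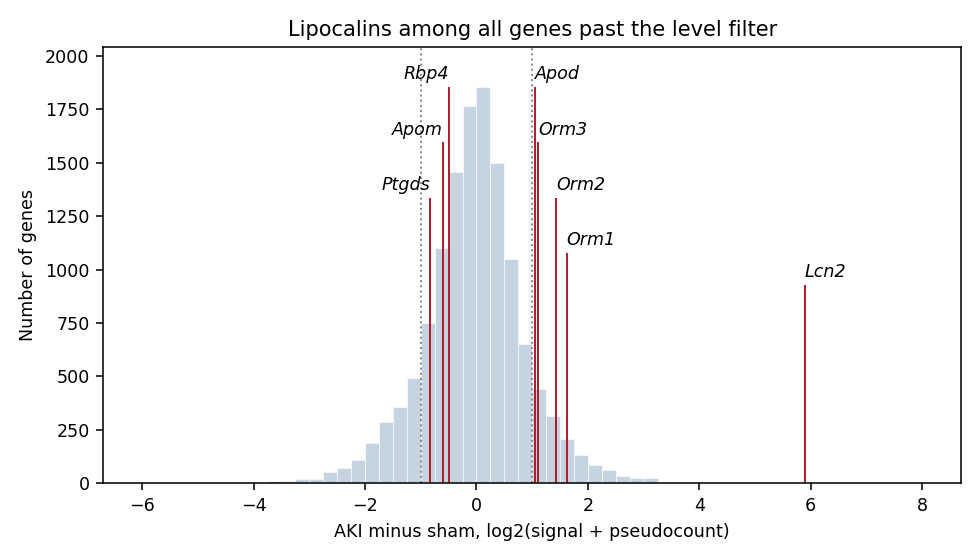
Number of genes (vertical axis) by log2 difference, AKI minus sham (horizontal axis), for the 13128 genes past the level filter, with a red line at each lipocalin gene (line heights carry no value) and dotted lines at 2-fold. Lcn2 at 5.89 lies in the far right tail, the orosomucoids and Apod lie between 1.05 and 1.62, and Rbp4, Apom and Ptgds lie between -0.83 and -0.50.

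In the gene order of RefSeq, the orosomucoid genes lie side by side on mouse chromosome 4, in the order Orm1, Orm3, Orm2. The third protein-coding gene before them is another lipocalin gene, Ambp, the source of alpha-1-microglobulin and bikunin. Ambp had a signal of 56710.1 in the AKI pool and 50163 in the sham pool, a log2 difference of 0.18. The genes between Ambp and Orm1, Kif12 (0.14) and Col27a1 (-0.74), and Whrn (0.15) and Atp6v1g1 (0.71) beyond Orm2, also differed by less than 2-fold, and Akna was below the level filter. The 2-fold differences in this stretch were those of the 3 orosomucoid genes. Around Lcn2 on chromosome 2, Dnm1 (0.64), 1110008P14Rik (0.76), Ptges2 (-0.61) and Slc25a25 (0.45) differed by less than 2-fold, Ciz1 was at -1.60 with a signal of 31.7 in the AKI pool and 241.2 in the sham pool, and Naif1 was below the level filter.

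Promoter sequences are shown for Lcn2, Orm2 and Orm3, acute phase members that were higher in the AKI pool. RefSeq (GRCm38.p6) gave windows for 7 of the 8 members, all but Orm1. They were searched on both strands, over the 250 bases before the transcription start, for letters bound by factors that act on acute phase genes: TTGCNNAA for C/EBP, TTCNNNGAA for STAT, GGGNNNTTC for NF-kB and TGTTCT for a glucocorticoid receptor half-site. Each sequence runs 5′ to 3′ along the strand of its gene, with matches in capitals.
Lcn2, chr2:32387740-32387989, minus strand: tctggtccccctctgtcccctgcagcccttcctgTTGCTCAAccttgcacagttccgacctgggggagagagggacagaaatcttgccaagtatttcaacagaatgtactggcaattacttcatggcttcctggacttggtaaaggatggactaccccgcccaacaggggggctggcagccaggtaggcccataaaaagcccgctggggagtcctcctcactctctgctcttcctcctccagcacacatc
Orm2, chr4:63362199-63362448, plus strand: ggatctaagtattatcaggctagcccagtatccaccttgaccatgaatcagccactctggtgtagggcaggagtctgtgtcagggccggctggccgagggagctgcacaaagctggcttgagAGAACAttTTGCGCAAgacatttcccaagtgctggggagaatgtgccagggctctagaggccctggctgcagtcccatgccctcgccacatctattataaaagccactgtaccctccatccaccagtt
Orm3, chr4:63355908-63356157, plus strand: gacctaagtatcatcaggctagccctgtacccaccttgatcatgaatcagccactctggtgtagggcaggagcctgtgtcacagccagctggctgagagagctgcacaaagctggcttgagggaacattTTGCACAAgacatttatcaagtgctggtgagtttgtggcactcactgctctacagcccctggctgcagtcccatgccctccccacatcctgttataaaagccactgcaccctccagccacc

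All 3 windows held the C/EBP letters, which occurred in 9.56% of 32851 promoter windows of this length. The match ran from 216 to 209 bases before the start in Lcn2, from 120 to 113 in Orm2 and from 121 to 114 in Orm3. Orm2 also held the half-site letters, from 128 to 123 bases before its start (16.1% of all windows). These 2 matches of Orm2 do not overlap. The Orm2 and Orm3 windows were 89.0% identical over 245 aligned bases, so their shared match is not an independent occurrence. The C/EBP letters were also present in 1 of the windows of Rbp4, which was not higher in the AKI pool, and Apom held the NF-kB letters (11.8% of all windows). No member window held the STAT letters (7.02% of all windows). A match is a description of letters and says nothing on binding.

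Rbp4 and Apom, the carriers of retinol and of sphingosine-1-phosphate, were slightly lower in the AKI pool. Rbp4 had a signal of 47766.3 in the AKI pool and 67461.7 in the sham pool, a ratio of 0.708 and a log2 difference of -0.50. The main Apom probe set had 5386.6 in the AKI pool and 8212.4 in the sham pool (-0.60), and its other probe set had 3962.3 in the AKI pool and 5089.7 in the sham pool (-0.36). Both Apom probe sets were thus lower in the AKI pool. These differences were smaller than the probe-set SD of their level class, 0.66, and are close to the median of the hepatocyte markers, -0.39. Of 13128 genes, 26.6% had a lower difference than Rbp4 and 22.7% a lower one than Apom.

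Apod had signals of 793.7 in the AKI pool and 345 in the sham pool on its main probe set, a log2 difference of 1.05. Its other probe set had 256.3 in the AKI pool and 403.2 in the sham pool (-0.53), and their mean was 0.26. A direction for Apod therefore cannot be given. By difference, Dok2 (1.06) and Slc30a4 (1.06) ranked just above the main probe set and Niban2 (1.05) and Lats1 (1.05) just below it. Ptgds had 355.4 in the AKI pool and 685.8 in the sham pool on its main probe set (-0.83), and 220.6 in the AKI pool and 169.4 in the sham pool on the other (0.28), which was below the level filter on both arrays. The signals of both genes were weak. Stromal cells express both Apod and Ptgds in many tissues. Of 16 stellate cell and fibroblast markers, 15 passed the level filter, with a median difference of -0.13. Of the 15, 1 (6.67%) was at least 2-fold higher, Dpt (1.13), and 0 lower, where 10.4% and 12.4% of all genes were. After Dpt came the matrix proteoglycan gene Dcn (0.92, other probe set 0.30), Gfap (-0.74, highest probe set 0.26) and Gsn (0.69, probe sets from 0.28 to 1.64). The summed signal of the 16 markers was 32364.5 in the AKI pool and 26600.9 in the sham pool, with Pdgfrb below the filter on both arrays. Dcn held the excess (14722.2 AKI, 7724.9 sham): the other 15 summed to 17642.3 in the AKI pool and 18876 in the sham pool, and 11 of the 15 measured markers were below 0. Such a sum weighs each marker by the strength of its probe set, so it does not measure the amount of these cells. The part of these cells in the Apod and Ptgds values was not tested, and in a bulk pool fewer cells of a type and less RNA per cell cannot be told apart.

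Neutrophils store lipocalin 2 in their granules, so their markers are given beside Lcn2. The calprotectin genes S100a8 (2023.4 AKI, 161.4 sham; log2 difference 3.17) and S100a9 (1666.6 AKI, 191.2 sham; 2.72) and the granule gene Ngp (2012.4 AKI, 889.1 sham; 1.12) were at least 2-fold higher, and the protease gene Prtn3 (37.1 AKI, 253.3 sham; -1.58) was lower. Of 22 markers, 17 were named on the array and 12 passed the level filter. Their median difference was 0.25. It was -0.04 with the arrays centred on reference genes, 0.54 with hybridization controls and 1.12 at the stricter level filter. The summed signal of the 17 was 9872.6 in the AKI pool and 5265.4 in the sham pool. S100a8, S100a9 and Ngp held most of that excess. This sum, too, weighs each marker by the strength of its probe set and does not measure the amount of neutrophils. Of the other markers, Elane (376.5 AKI, 192.3 sham, 0.76), Trem1 (0.54, other probe set -0.45), Mmp8 (0.31), Ltf (0.19) and Csf3r (0.14) passed the level filter. Mpo (-0.03), Il1f9 (-0.25) and Cd177 (-0.57) also passed it. Ctsg, Camp, Cxcr2, Padi4 and Stfa3 did not, at 18.5 to 113.1 in the AKI pool and 18.1 to 162.2 in the sham pool. Of the 17 markers, 7 were below the level filter in the AKI pool and 8 in the sham pool, S100a8 and S100a9 among the latter. Of the 12 measured, 3 (25%) were at least 2-fold higher and 1 (8.33%) lower, where 10.4% and 12.4% of all genes were. The part of neutrophils in the Lcn2 difference was not tested.

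**Figure D3:**
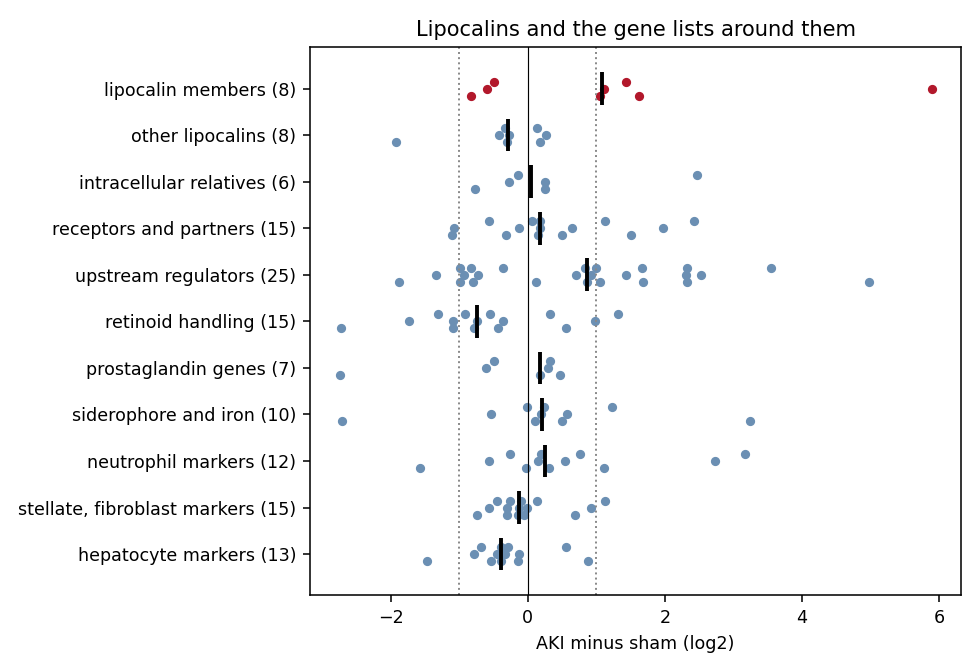
Log2 difference, AKI minus sham (horizontal axis), of each gene past the level filter (points) in the lipocalin set and the lists around it, with the number of genes in brackets, a black bar at each median and dotted lines at 2-fold. Upstream regulators have a median of 0.86 and retinoid genes one of -0.75, against -0.02 over all genes.

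Among genes that act upstream of acute phase lipocalins, many receptors and transcription factors were higher in the AKI pool. Of 25 measured, 10 (40%) were at least 2-fold higher and 2 (8%) lower, where 10.4% and 12.4% of all genes were. Of these 10, Il1r1, Il6 (2.30) and Relb (2.32) passed the level filter only in the AKI pool. Their sham signals were 179.5, 133.3 and 43.7. The median of the 25 was 0.86. Il1r1, the receptor of interleukin-1, had a signal of 7831 in the AKI pool and 179.5 in the sham pool (4.97), although its other probe set was at -1.06. Nfkbiz, whose product IkB-zeta is a co-activator needed for Lcn2 induction in mouse cells, had 6097 in the AKI pool and 456.7 in the sham pool (3.54). Stat3, which carries interleukin-6 signals (2.53), and Cebpd, a C/EBP factor of the acute phase response (2.33), followed. The lowest probe set of each gene was at 0.35 for Nfkbiz, -0.08 for Stat3 and 0.58 for Cebpd, so the sizes of these differences are uncertain. The liver transcription factor genes Foxa3 (-1.88) and Nr5a2 (-1.34, probe sets from -2.43 to -0.74) were the 2 that were at least 2-fold lower. Of the 25, 16 were above 0 and 9 below. Those below 0 included the C/EBP genes Cebpg (-0.99) and Cebpa (-0.93). The glucocorticoid receptor gene Nr3c1 (-0.81, highest of 6 probe sets -0.19) and Il6ra (-0.72, other probe set -0.62) were also below 0.

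Receptors and partners of the lipocalins went in both directions. The median of the 15 measured genes was 0.17. Of these, 4 (26.7%) were at least 2-fold higher and 2 (13.3%) lower, where 10.4% and 12.4% of all genes were. On the side of lipocalin 2, the siderophore-lipocalin receptor gene Slc22a17 was at 0.50 and the endocytic receptor gene Lrp2 at 0.06 (probe sets from -0.35 to 0.72), and Mmp9, whose product forms a complex with lipocalin 2 in human neutrophils, was at 1.13 (other probe set 0.33). Mmp9 passed the level filter only in the AKI pool (509 AKI, 193.2 sham). For Rbp4, its plasma partner Ttr was at -0.12 and the liver retinol receptor gene Stra6l at -0.56, while Stra6 was below the level filter. For the sphingosine-1-phosphate that Apom carries, the kinase genes went opposite ways. Sphk1 had 1419.3 in the AKI pool and 307.1 in the sham pool (1.98, other probe set 1.13), and Sphk2 had 262.4 in the AKI pool and 646.7 in the sham pool (-1.10, other probe set -0.41). The receptor gene S1pr2 was at 2.42 (other probe set 0.49), with S1pr1 at 0.15 and S1pr3 at 0.64 (lowest probe set -0.11). Bsg, reported as a receptor for apolipoprotein D in human cells, was at -1.08, and the leptin receptor gene Lepr was at 1.51 with probe sets from -0.18 to 3.50.

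Several genes of retinoid storage and conversion were lower in the AKI pool. Of 15 measured, 5 (33.3%) were at least 2-fold lower and 1 (6.67%) higher, where 12.4% and 10.4% of all genes were. The median of the 15 was -0.75. The retinal reductase gene Dhrs3 had 465.6 in the AKI pool and 3503.2 in the sham pool (-2.73). Lrat, which esterifies retinol for storage (-1.74, other probe set -0.17), the retinoid X receptor gene Rxra (-1.31, with another probe set at 0.01), and the dehydrogenase genes Aldh1a1 (-1.10) and Adh1 (-1.10) were the others. Lrat passed the level filter only in the sham pool (45.5 AKI, 320.1 sham). Rdh10, which oxidises retinol to retinal, was at 1.32 (other probe set 0.96). Rbp4 at -0.50 lies above the median of this list. Around Ptgds, 7 prostaglandin genes were measured, with a median of 0.17. The prostaglandin-degrading dehydrogenase gene Hpgd had 710.6 in the AKI pool and 5185.6 in the sham pool (-2.75, other probe set -1.31), and the next largest differences were those of Ptges2 (-0.61), Ptgs2 (-0.49, other probe set 0.69) and Akr1c18 (0.47). Genes of siderophore and iron handling had a median of 0.21 over 10 genes. Of these, 2 (20%) were at least 2-fold higher and 1 (10%) lower, where 10.4% and 12.4% of all genes were. Slc39a14, a zinc and iron importer (3.24), and the transferrin receptor gene Tfrc (1.22, with another probe set at 0.12) were at least 2-fold higher and the iron exporter gene Slc40a1 (-2.72) lower, with the haptoglobin gene Hp at 0.57. Centring on reference genes turned the median of the iron list to -0.08 and those of the receptor and prostaglandin lists to -0.12 each. The stellate and fibroblast median turned to 0.17 with centring on hybridization controls and to 0.07 with the mean of all probe sets.

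Other members of the lipocalin family mostly differed by less than 2-fold, as did most genes on the array. Of 38 entries, 14 were named on the array by 1 gene and 8 passed the level filter, with a median of -0.29. Of the 8, 0 were at least 2-fold higher and 1 (12.5%) lower, where 10.4% and 12.4% of all genes were. The lower gene was Mup10, a major urinary protein, with 638 in the AKI pool and 2615.9 in the sham pool (-1.92). Mup3 (0.13, other probe set 0.75) and Mup5 (0.27) differed by less than 2-fold. Major urinary protein genes are near-identical copies, so their probe sets may bind several of them. The complement gene C8g was at -0.28, and the weakly detected Obp2a (-0.42), Lcn8 (-0.33) and Lcn11 (-0.30) completed the list with Ambp. Among the related intracellular fatty acid and retinoid carriers, 6 were measured with a median of 0.05. Fabp4 had 2277.9 in the AKI pool and 354 in the sham pool (2.46, with 4 probe sets from 0.26 upward). The main liver carrier gene Fabp1 (-0.78), Fabp5 (-0.28) and Fabp3 (0.26, other probe set -0.70) differed by less than 2-fold. The median of the other lipocalins was 0.01 with centring on hybridization controls, and that of the intracellular carriers -0.24 with centring on reference genes.

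The scaling moved all genes together. Centring on 18 hybridization control probe sets put the median of all genes at 0.28 and centring on 10 reference genes at -0.31. Of the genes past 2-fold, 67.5% were higher under the first centring and 25.9% under the second, against 45.6% with the authors' scaling. On the value that represents it, each member kept its direction under all 11 alternatives, as far as they gave it a value. Most alternatives reuse the same probe set, so they cannot give a direction for Apod or Ptgds, whose probe sets disagree. Lcn2 ranged from 5.60 to 6.19, Orm1 from 1.33 to 1.92, Orm2 from 1.15 to 1.73 and Orm3 from 0.82 to 1.41. Rbp4 ranged from -0.79 to -0.20, Apom from -0.89 to -0.30, Ptgds from -1.12 to -0.27 and Apod from 0.26 to 1.35.

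**Figure D4:**
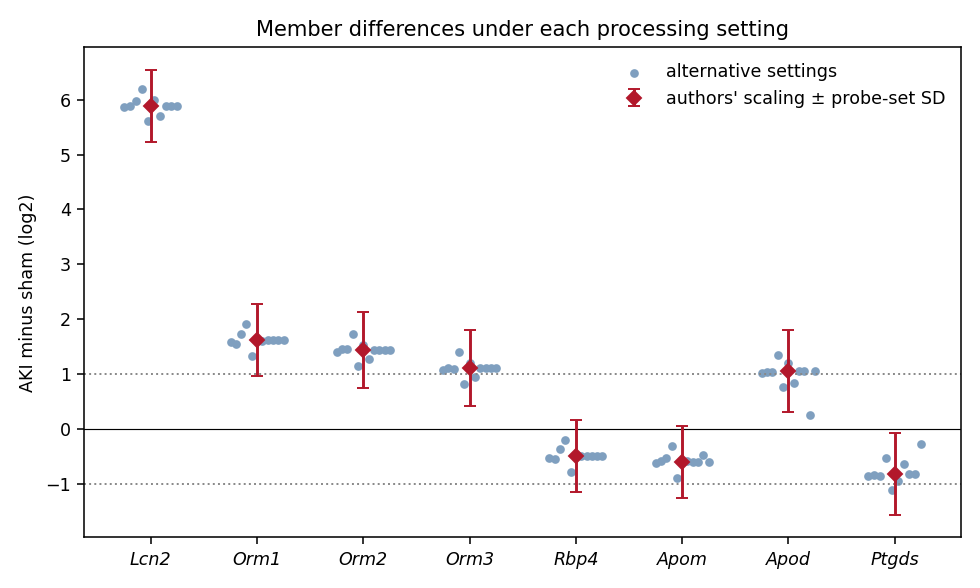
Log2 difference, AKI minus sham (vertical axis), of each lipocalin gene with the authors' scaling (diamond; the bar is ± 1 SD between probe sets of the same gene in its level class, not between mice) and under the alternative settings (points); dotted lines mark 2-fold. Lcn2 stays between 5.60 and 6.19, while the bars of Rbp4 and Apom reach across 0.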

How the data were processed

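Total RNA of 1 liver pool per group (3 mice each, per the labels) was extracted with Trizol and labelled as biotinylated cRNA from 8 ug of total RNA. The values deposited by the authors are probe-set signal intensity values on a linear scale. The software that made them and a genome build are not given in the sources used here. With 2% of probe sets trimmed from each end, the mean signal was 500.00 on both arrays, so they had been scaled to a common target, which removes any difference in total mRNA between pools. With 1 array per group, their number limits the precision and no p-value is given.

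Of 45037 probe sets that are not array controls, 34945 had 1 gene symbol in the platform annotation, 932 several and 9160 none. Names were kept as annotated, and list entries were matched by symbol or Entrez gene number. The pseudocount, 71.8, is the 25th percentile of the table. Members and lists (16 lists, 269 entries: other lipocalins, intracellular relatives, receptors and partners, retinoid, prostaglandin, regulator, iron and reference genes, and 8 sets of cell type markers) were chosen with earlier results of these data known. Named were every member, up to 4 genes per list with the largest absolute difference, all of a list past 2-fold in a direction where these were 5 or fewer, and the 2 genes on either side of a member past 2-fold by rank. Further receptors and partners, upstream regulators, neutrophil markers, other lipocalins and chromosomal neighbours were named after their values were seen. The 11 alternatives are given in the closing section. The computation was tested on simulated data. Python 3.11.15, numpy 2.4.6, pandas 2.3.3, statsmodels 0.14.6, matplotlib 3.10.9 and Biopython 1.88 were used.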

Additional observations from a re-analysis of the deposited data

How the results depend on the processing

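The count of lipocalin genes at least 2-fold higher was 5 with the authors' scaling, 3 with centring on reference genes and 3 with a pseudocount at the table median of 228.7, where Orm3 (0.82 and 0.95) and Apod (0.77 and 0.83) were below 2-fold. It was 4 with the mean of all probe sets, where Apod was at 0.26. With centring on reference genes, 1 was at least 2-fold lower, Ptgds at -1.12. Leaving out probe sets whose suffix marks shared probes left no measured probe set for Lcn2 or Ptgds, and gave 4. Over all genes, 2211 were at least 2-fold higher and 1066 lower when centred on hybridization controls, 883 and 2531 when centred on reference genes, and 841 and 1063 with the larger pseudocount, against 1370 and 1634. The median of the neutrophil markers was 1.12 at the stricter level filter. No paired analysis was possible because each group has 1 array.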

Other observations

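Cell type markers other than those above were as follows. Endothelial markers, sinusoidal and general, had 13 measured genes and a median of -0.59. Of these, 5 (38.5%) were at least 2-fold lower and 1 (7.69%) higher, where 12.4% and 10.4% of all genes were. The lower ones were the lectin gene Clec4g (-2.08), Oit3 (-1.86), the scavenger receptor gene Stab1 (-1.55), Eng (-1.25) and Dnase1l3 (-1.24). The higher one was Lyve1 (1.79). Oit3 passed the level filter only in the sham pool (83.6 AKI, 492.3 sham). Eng and Dnase1l3 each had another probe set in the other direction (0.73 and 0.69). Kupffer cell and macrophage markers had a median of -0.46 over 15 genes. At least 2-fold lower were 3 (20%), Clec4f (-1.37), Cd5l (-1.24) and C1qa (-1.01), and 1 (6.67%) was higher, the scavenger receptor gene Marco (1.46). Marco passed the level filter only in the AKI pool (640.3 AKI, 187.4 sham). Hepatocyte markers had a median of -0.39 over 13 genes, with Tdo2 (-1.47) lower and 0 at least 2-fold higher, and the next largest differences were those of Fgb (0.88), Ass1 (-0.79) and Ahsg (-0.68). Of the bile duct markers 3 were measured, Sox9 (2.58), Tspan8 (0.42, probe sets from -0.40 to 1.80) and Epcam (0.40). The adipocyte markers Retn (-0.39) and Lipe (0.02) and the erythroid markers Alas2 (0.19) and Slc4a1 (0.07) differed by less than 2-fold. Among 10 reference genes the median was 0.29, with Ywhaz (1.20, lowest probe set -0.40) at least 2-fold higher and Rplp0 (0.86), Hprt (0.67) and Sdha (-0.67, highest probe set 0.10) next.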
